A study of Mus musculus with 8 samples.

Results

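The genes described here encode the enzymes that attach isoprenoid lipids to small GTPases and finish their C-terminal ends. They were chosen by name, as rows of the deposited gene table carrying the symbols Ggps1, Fnta, Fntb, Pggt1b, Rabggta, Rabggtb, Chm, Rce1, Zmpste24 and Icmt. All 10 members were found among 21879 genes, and all 10 passed the filter on low counts that left 11576 genes for testing. The study sequenced messenger RNA, selected by its poly(A) tail, from TCMK-1, a cell line derived from mouse kidney tubule epithelium. The control group of 4 libraries came from cells with a control shRNA (genotype given as smgGDS control), and the knockdown group of 4 libraries from cells with an shRNA against smgGDS. Both groups received 20 µM cisplatin, the platinum drug whose kidney toxicity the study concerns. No library here was without the drug, so no value below is an effect of cisplatin. The labels do not say that replicates were separate cultures or clones. Each group may therefore be 1 line, and the p-values measure only the spread between these libraries, which may be technical.

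Most small GTPases reach membranes only after a prenyl group is joined to a cysteine near their C-terminus. Farnesyltransferase and geranylgeranyl transferase type I act on proteins ending in a CAAX box, a cysteine followed by a pair of usually aliphatic residues and a variable last residue. The protease Rce1 then removes the last residues and the methyltransferase Icmt caps the exposed prenylcysteine, whereas Rab proteins are handled by a separate geranylgeranyl transferase that needs a Rab escort protein. smgGDS, the product of Rap1gds1, binds small GTPases with a C-terminal polybasic region, and its splice forms differ in whether they bind the GTPase before or after prenylation.

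Libraries held 11560977 to 16059158 expected counts in all. The knocked-down gene Rap1gds1 had 15.5 to 17.0 CPM (normalised counts at a common library size) across controls and 2.36 to 2.80 CPM across knockdown libraries, so every library matched its label. On the first principal component of log2 CPM, which carried 29.2% of the variance, controls lay between -16.5 and -8.86 and knockdown replicates 1 to 3 between 8.86 and 9.58, with knockdown replicate 4 apart at 20.9. Of 16 tubule and epithelial markers, 7 had enough counts to be tested. Hnf4a and Umod had no count in any library and Cdh1 had at most 5, while Pax8 was at 8.97 CPM in control and 9.33 CPM in knockdown cells. The water channel gene Aqp1 fell, from 155 to 127 CPM (log2 fold change -0.29, edgeR adjusted p = 3.33e-07). It was the only marker of the 7 that was called (14.3%, against 20.2% of all tested genes). The 16 markers summed to between 176 and 189 CPM across controls and between 151 and 159 CPM across knockdown libraries, without overlap. Most of each sum was Aqp1, so the sum describes mainly that gene. Of the 7 tested markers, 3 had positive and 4 had negative estimates. The 5 fibroblast and pericyte markers summed to between 280 and 305 CPM across controls and between 327 and 378 CPM across knockdown libraries, almost all from Col1a1. All 3 of those tested rose, against 11.1% of all tested genes. Pdgfra and Lum had too few counts to be tested, at most 9 in a library, and their means were lower in the knockdown. The part of either marker list in the results below was not tested. In bulk RNA, fewer cells of a type and less RNA per cell cannot be told apart.

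Transcripts of the prenylation enzymes differed little between knockdown and control. Zmpste24 and Fnta rose by about 10% each, none of the other 8 passed the test, and 0 fell. Changes are given as log2 fold changes, knockdown minus control, from edgeR's quasi-likelihood test, with Benjamini-Hochberg adjustment over all 11576 genes and a threshold of 0.05. The members called were 2 of 10 (20.0%), against 20.2% of all tested genes, and in the upward direction 2 of 10 against 11.1%; the downward background was 9.15%. With both directions counted together, the members' share is thus near that of all genes. At an unadjusted p under 0.05 edgeR gave 5 of 10 members, against 32.0% of all genes, and Icmt was the only one of these that was lower in the knockdown. DESeq2 and limma voom also called 0 members downward. The median log2 fold change of the members was 0.05, against 0.00 over all genes, and their median absolute change was 0.08, against 0.12. Normalised counts of 3 of 10 members did not overlap between the groups (Fnta, Rabggtb and Zmpste24), against 21.1% of all genes. The 10 genes together had 581 ± 10.9 CPM in control libraries, and 589 ± 17.7 CPM in those of the knockdown (mean ± SD, n = 4 each), with overlapping ranges of 567 to 593 and 570 to 612 CPM.

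**Figure D1:**
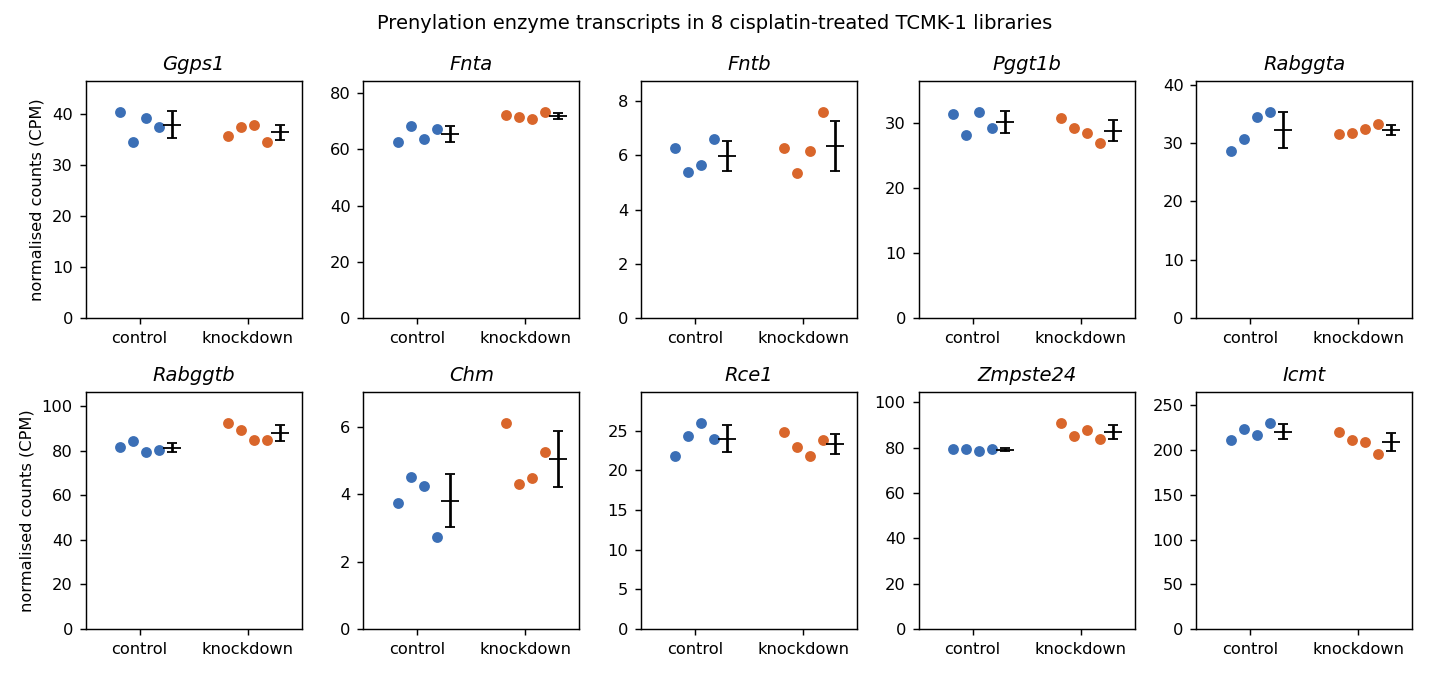
Normalised counts (CPM, axis from 0) of each member in the 4 control (blue) and 4 knockdown (orange) libraries, replicates 1 to 4 from left to right, with the mean and SD as black bars. The groups do not overlap for Fnta, Zmpste24 and Rabggtb and overlap for the other 7 genes.

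Levels per transcript length, read from the authors' FPKM over all 8 libraries, spanned 68.1-fold from the lowest to the highest member. Rabggtb stood highest at 62.4 ± 2.75 FPKM, followed by Icmt at 43.6 ± 2.80, Fnta at 36.5 ± 1.60 and Zmpste24 at 24.1 ± 0.97 FPKM (SD over 8 libraries). Rce1 at 16.6 ± 1.14 and Rabggta at 15.4 ± 0.94 FPKM were neighbours whose ranges overlapped, with Rce1 above Rabggta in 6 of 8 libraries. Ggps1 followed at 11.6 ± 0.86, Pggt1b at 5.63 ± 0.45, Fntb at 2.4 ± 0.27 and Chm at 0.92 ± 0.20 FPKM. Every other pair of neighbours in this order was separated in all 8 libraries, so the order of the levels was the same in every library apart from Rce1 and Rabggta. The catalytic beta subunits of the CAAX transferases were thus among the lowest members and their shared alpha subunit among the highest.

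**Figure D2:**
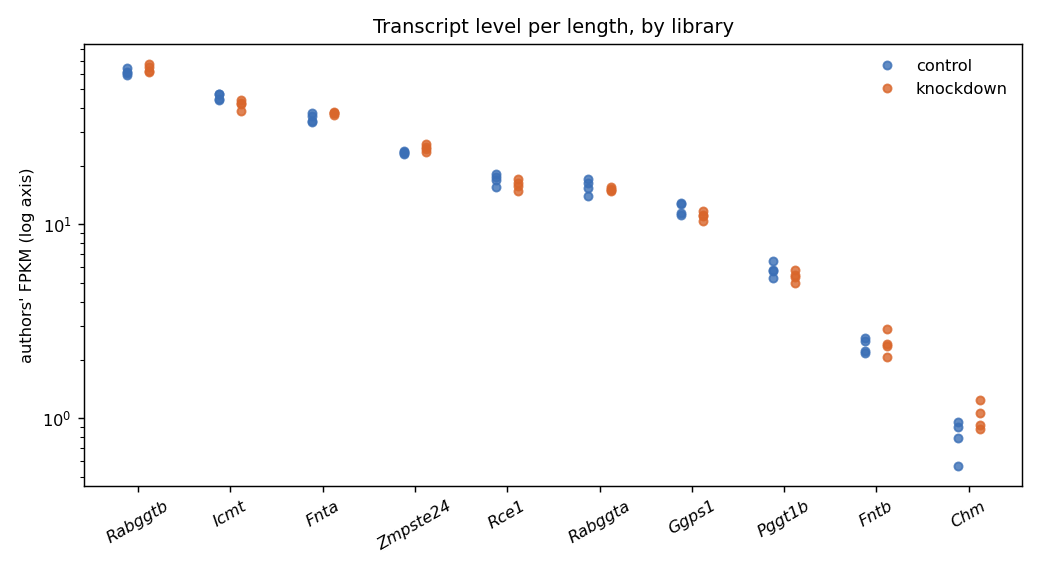
Authors' FPKM (log axis) of the 10 members, ordered by mean, with 4 control (blue) and 4 knockdown (orange) libraries per gene. Levels fall from about 62.4 FPKM for Rabggtb to 0.92 FPKM for Chm, and within each gene the groups lie close together compared with the steps between genes.

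The gene for the enzyme that makes the geranylgeranyl donor showed no called change. Ggps1 encodes geranylgeranyl diphosphate synthase, which makes the donor used by both geranylgeranyl transferases, and spans chr13:14049790-14063566 (GRCm38.p6, as all coordinates here). Its normalised counts were 40.4, 34.4, 39.2 and 37.5 CPM in control replicates 1 to 4 and 35.7, 37.5, 37.7 and 34.4 CPM in knockdown replicates 1 to 4. The groups overlapped throughout, and the knockdown was at 96.0% of control (95% interval 87.8% to 105%, edgeR adjusted p = 0.572). Its expected counts were not all whole, so some of its reads may be shared with other loci and the estimate is less certain.

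The shared alpha subunit of the CAAX transferases rose slightly and its catalytic partners showed no called change. Fnta, at chr8:25998688-26015610, encodes the alpha subunit common to farnesyltransferase and geranylgeranyl transferase type I. It was at 62.6, 68.5, 63.7 and 67.3 CPM in control replicates 1 to 4 and at 72.3, 71.6, 70.7 and 73.3 CPM in knockdown replicates 1 to 4. All knockdown libraries were above all controls, and the log2 fold change was 0.14 (SE 0.05, edgeR adjusted p = 0.0387). This call was lost without control replicate 1 or 3, or knockdown replicate 1, 2 or 4, with DESeq2 (adjusted p = 0.0621) and under total-count scaling (log2 fold change 0.08). It was also lost with limma on FPKM (0.08, adjusted p = 0.214), in edgeR with no low-count filter (adjusted p = 0.0548) and at a threshold of 0.01. The adjusted p lay between 0.0256 and 0.255 over 19 alternatives.

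Fntb, at chr12:76837400-76921412, encodes the beta subunit that makes the complex a farnesyltransferase. It was low, with 6.28, 5.37, 5.65 and 6.59 CPM in control replicates 1 to 4 and 6.28, 5.34, 6.17 and 7.59 CPM in knockdown replicates 1 to 4. The groups overlapped, with knockdown replicate 4 highest, and the knockdown was at 107% of control (95% interval 87.5% to 129.9%, edgeR adjusted p = 0.707). It had 68 to 102 counts per library, and its interval was the widest after that of Chm. Its span overlaps the long noncoding RNA genes Gm46357 (8661 bases) and Gm46358 (14716 bases), and the strand setting of the counting is not known. Pggt1b, the beta subunit of geranylgeranyl transferase type I (chr18:46235344-46281089), was at 31.4, 28.2, 31.8 and 29.3 CPM in control replicates 1 to 4 and 30.8, 29.2, 28.5 and 27.0 CPM in knockdown replicates 1 to 4. Its groups overlapped as well, at 95.9% of control (95% interval 87.0% to 106%, edgeR adjusted p = 0.599).

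Ratios between subunits were compared within each library, since they do not depend on how libraries are scaled. The log2 ratio of Pggt1b to Fnta counts was -1.12 ± 0.14 in controls and -1.32 ± 0.09 in the knockdown (SD, n = 4 each). The difference of -0.20 was larger than either SD, but the groups overlapped and the exact two-sided permutation test gave p = 0.0571, or 0.229 after Benjamini-Hochberg adjustment over 4 ratios. With 4 libraries against 4 the smallest possible p is 0.0286. For Fntb to Fnta the values were -3.45 ± 0.16 and -3.51 ± 0.19 (exact permutation p = 0.657, adjusted 0.657, SD, n = 4 each). Per length, Fnta exceeded the sum of its 2 beta partners 4.33 ± 0.37-fold in controls and 4.79 ± 0.22-fold in the knockdown (SD, n = 4 each, from the authors' FPKM), with ranges of 3.94 to 4.71 and 4.57 to 5.07 that overlapped.

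Genes for Rab prenylation showed upward estimates for Rabggtb and Chm that did not pass the test. Rabggta (chr14:55715864-55722263) and Rabggtb (chr3:153907289-153912966) encode the alpha and beta subunits of the Rab geranylgeranyl transferase. Rabggta was at 28.7, 30.6, 34.4 and 35.3 CPM in control replicates 1 to 4 and 31.5, 31.8, 32.4 and 33.3 CPM in knockdown replicates 1 to 4. The knockdown values lay inside the range of the controls, at 100.4% of control (95% interval 91.1% to 111%, edgeR adjusted p = 0.971). Rabggtb was at 81.5, 84.3, 79.4 and 80.5 CPM in control replicates 1 to 4 and 92.7, 89.5, 85.0 and 84.9 CPM in knockdown replicates 1 to 4. Here the groups did not overlap, although knockdown replicates 3 and 4 exceeded the highest control by under 1 CPM, and the log2 fold change of 0.11 (SE 0.05) missed the threshold (edgeR adjusted p = 0.0746). Rabggtb passed in 2 of 19 alternatives, with adjusted p from 0.0478 to 0.422 over all of them. These were a term for replicate number and the fit without knockdown replicate 4 (log2 fold change 0.13, edgeR adjusted p = 0.0483). Without knockdown replicate 1 the edgeR adjusted p was 0.253. The Rabggtb gene holds 3 small nucleolar RNA genes, and whether the counting used strand is not known from the sources used here. In count terms Rabggtb to Rabggta had a log2 ratio of 1.34 ± 0.17 in controls and 1.45 ± 0.09 in the knockdown (SD, n = 4 each, exact permutation p = 0.314, adjusted 0.419).

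Chm encodes Rab escort protein 1, which presents newly made Rab proteins to the transferase (chrX:113040592-113185539). Its normalised counts were 3.75, 4.52, 4.26 and 2.74 CPM in control replicates 1 to 4 and 6.14, 4.32, 4.49 and 5.27 CPM in knockdown replicates 1 to 4. Knockdown replicate 1 was highest and control replicate 4, with 32 counts, lowest, and the groups overlapped. Chm had the largest estimate of the members, 131% of control (log2 fold change 0.39, SE 0.17), with a 95% interval of 103% to 167% and no call (edgeR adjusted p = 0.106). No alternative called it. Its paralogue Chml, Rab escort protein 2, was counted at a far higher level per length. On the FPKM scale it was 11.9-fold above Chm in controls and 8.88-fold in the knockdown (range over libraries 7.07 to 16.2). The log2 count ratio of Chml to Chm was 3.90 ± 0.33 and 3.48 ± 0.27 (SD, n = 4 each, exact permutation p = 0.171, adjusted 0.343). Chml itself was at 56.4 CPM in both groups. Its whole span, 6117 bases, lies within the Opn3 gene, whose reads could not be told apart without the strand setting. The part of such reads in the Chml level and in its ratio to Chm was not tested.

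Of the CAAX-processing genes Zmpste24 rose, while Rce1 and Icmt were not called. Zmpste24 encodes the zinc metalloprotease of the endoplasmic reticulum and inner nuclear membrane that cleaves farnesylated prelamin A, and lies at chr4:121059237-121098249. The promoters of the 2 CAAX proteases are shown because Zmpste24 had the smallest adjusted p of the members while Rce1 had an estimate near 0. Both are read 5′ to 3′ on the minus strand from RefSeq on GRCm38.p6, with matches to the searched motifs in capitals.

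Zmpste24 promoter, chr4:121098250-121098460: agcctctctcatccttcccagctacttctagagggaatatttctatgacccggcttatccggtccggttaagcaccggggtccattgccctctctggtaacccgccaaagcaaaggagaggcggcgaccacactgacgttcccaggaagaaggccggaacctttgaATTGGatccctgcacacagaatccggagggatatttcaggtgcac
Rce1 promoter, chr19:4625646-4625895: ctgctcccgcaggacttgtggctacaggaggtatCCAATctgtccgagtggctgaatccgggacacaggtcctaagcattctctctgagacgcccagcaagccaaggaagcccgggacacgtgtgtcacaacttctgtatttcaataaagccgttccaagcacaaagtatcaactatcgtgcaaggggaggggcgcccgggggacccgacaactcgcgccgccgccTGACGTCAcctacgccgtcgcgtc

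The motifs searched, on both strands, were the cyclic AMP response element palindrome TGACGTCA, the ATF4-type composite TGATGNAA, the CCAAT box CCAAT and the GC box GGGCGG, in the 250 bases before each RefSeq start. Of 32851 such windows 1.55%, 3.45%, 33.8% and 32.7% held them in that order. In the Rce1 window the palindrome began 24 bases before the start and a CCAAT box 216 bases before it; the other listed start of Rce1 had 2 GC boxes. The Zmpste24 window held 1 CCAAT box, on the other strand, 84 bases before the start, and none of the other 3 motifs. Among the other members with an entry, Ggps1 had 3 CCAAT boxes, Fntb and Icmt had 1 GC box each, and Rabggta and Rabggtb had GC boxes, with a CCAAT box at the other listed start of Rabggtb. None of these members held the palindrome or the ATF4-type composite, and Chm held none of the 4 motifs. These matches describe letters in a window and are not evidence of binding.

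Zmpste24 was at 79.2, 79.5, 78.3 and 79.3 CPM in control replicates 1 to 4 and 91.0, 85.1, 87.6 and 83.7 CPM in knockdown replicates 1 to 4. The controls were close together (SD 0.52 CPM) and all knockdown libraries were above them, with a log2 fold change of 0.14 (SE 0.04, edgeR adjusted p = 0.0259). The call was lost without control replicate 1 or 3 or knockdown replicate 1 or 3, with a length and GC correction (adjusted p = 0.0598), under total-count scaling (log2 fold change 0.08, adjusted p = 0.218) and on FPKM (0.08, adjusted p = 0.251). It was also lost at a threshold of 0.01. The adjusted p ranged from 0.0158 to 0.251 over 19 alternatives, all of them with a positive estimate. Lmna, which encodes prelamin A, also went up, with 368 ± 10.3 CPM in control and 417 ± 5.98 CPM in knockdown libraries (SD, n = 4 each). Its log2 fold change was 0.18 with an SE of 0.03, at an edgeR adjusted p of 1.66e-05.

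**Figure D3:**
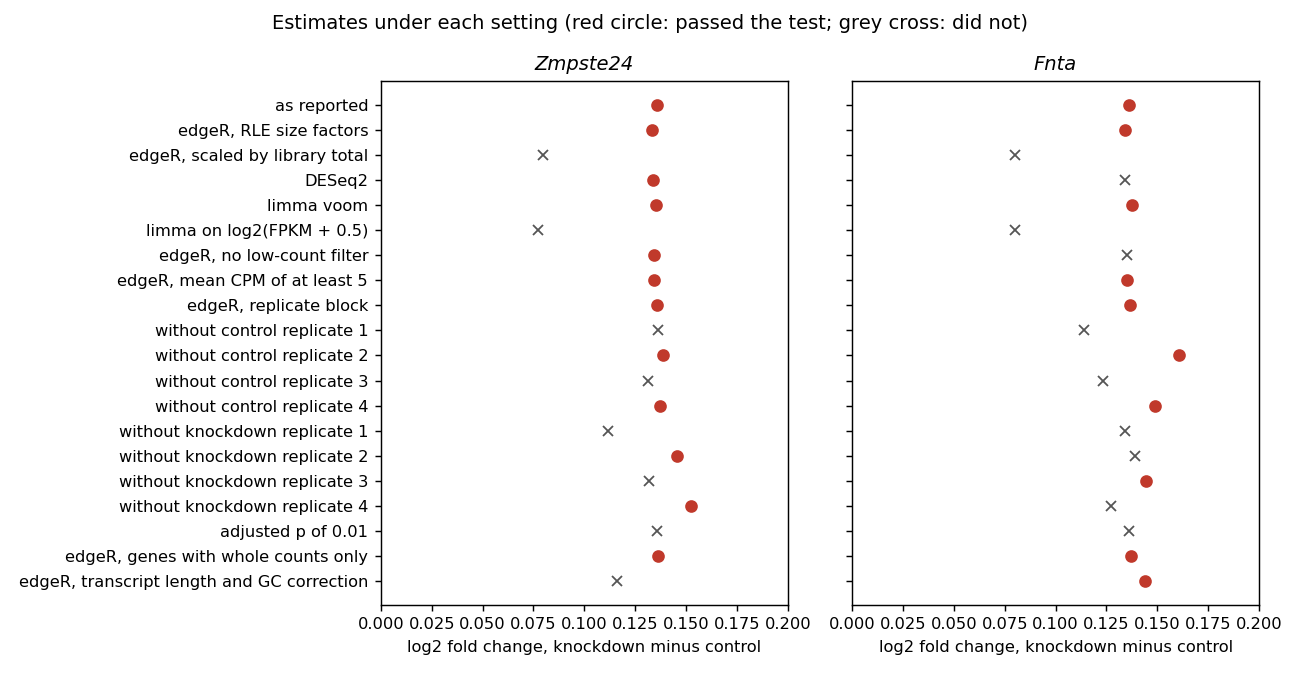
Log2 fold change (knockdown minus control, axis from 0) of Zmpste24 and Fnta as reported and under 19 other settings, with red circles where the gene passed the threshold and grey crosses where it did not. Every estimate is positive, Zmpste24 passed in 11 and Fnta in 9 of the 19, and total-count scaling and FPKM gave the smallest estimates.

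Rce1, the protease that removes the last residues of prenylated CAAX proteins (chr19:4622593-4625645), was at 21.8, 24.3, 26.0 and 24.0 CPM in control replicates 1 to 4 and 24.9, 22.9, 21.9 and 23.8 CPM in knockdown replicates 1 to 4. The knockdown libraries lay within the control range, at 97.5% of control (95% interval 87.5% to 109%, edgeR adjusted p = 0.798). Icmt, the methyltransferase of the last step (chr4:152297214-152307126), was the member with the most counts. It was at 212, 224, 217 and 231 CPM in control replicates 1 to 4 and at 221, 212, 209.6 and 196 CPM in knockdown replicates 1 to 4. The groups overlapped, with knockdown replicate 4 lowest, and the knockdown was at 95.0% of control (95% interval 90.3% to 99.96%, edgeR adjusted p = 0.153). Under total-count scaling Icmt passed as lower (log2 fold change -0.13, adjusted p = 0.00738), the only setting of 19 that called it. Its span shares 109 bases with the Rnf207 gene.

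**Figure D4:**
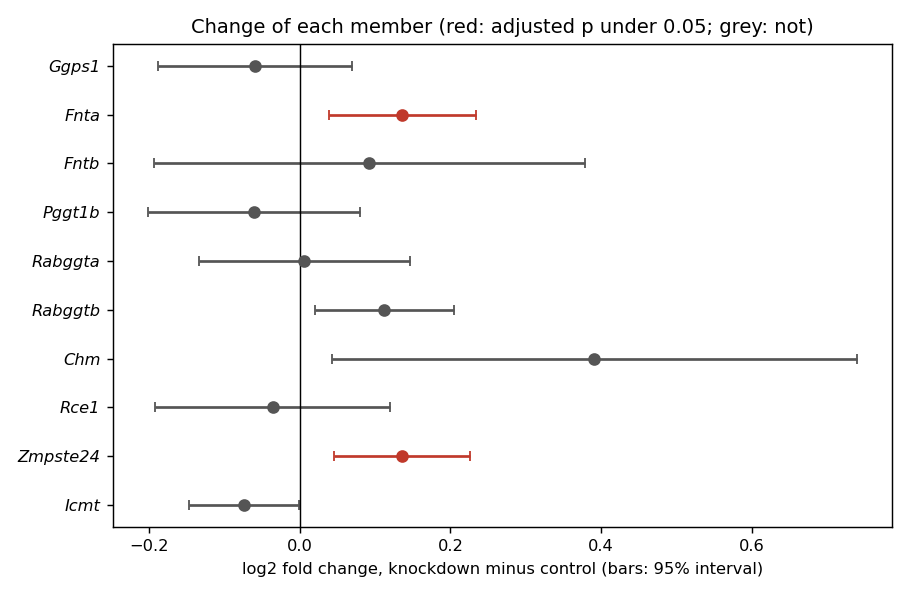
Log2 fold change of each member, knockdown minus control, with its 95% interval; red points passed the adjusted threshold of 0.05 and grey points did not. Intervals are narrow for all members but Fntb and Chm, the ones with the fewest counts.

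The 5 genes whose pattern over the 8 libraries was most like that of Zmpste24 were Erh, Bccip, Slc25a5, Lap3 and Psat1. Likeness was the root mean square difference of log2 CPM centred per gene, which was 0.02 for Erh and 0.03 for Psat1, against a median of 0.12 over 7134 candidate genes. All 5 had fold changes of the same small size, from 0.10 for Psat1 to 0.15 for Slc25a5. They were picked for this likeness, so their direction adds no support.

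Of the other genes of the pathway, those that make isoprenoid precursors moved in both directions. Among 14 genes of isoprenoid supply and its competing branches, 3 rose and 2 fell, which is 35.7% called against 20.2% of all genes, with a median log2 fold change of 0.04. This list was chosen with earlier results of these data known, so its share is no independent support. Mvd, the mevalonate diphosphate decarboxylase, was at 38.6 ± 2.88 CPM in control and 32.8 ± 2.58 CPM in knockdown libraries (SD, n = 4 each). It fell by 0.24 on the log2 scale (SE 0.07), at an edgeR adjusted p of 0.00808. Genes of later steps rose: the isomerase Idi1 rose by 0.27 (SE 0.05), Fdps, which makes the farnesyl donor, by 0.19 (SE 0.05), and squalene synthase Fdft1, which draws farnesyl diphosphate into sterols, by 0.20 (SE 0.07). Mvd and Idi1 passed in every alternative that tested them, whereas Fdps lost its call under total-count scaling, on FPKM and at a threshold of 0.01. Fdft1 passed in 8 of 18, losing its call without control replicate 1, 2 or 4 or knockdown replicate 2 or 4. Idi1 and Fdft1 have counts that are not whole and are less certain. The list's count of rises was 1 under total-count scaling and 1 on FPKM.

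Among 11 partners of the enzymes 0 rose and 2 fell by edgeR, or 18.2% called against 20.2% of all genes, with 5 at an unadjusted p under 0.05, against 32.0% of all genes; DESeq2 and limma voom also gave 0 rises. The median log2 fold change of these partners was 0.00. Those that fell were the prenylcysteine oxidase Pcyox1, which breaks down the prenylcysteine left by degraded prenylated proteins, and its relative Pcyox1l. Pcyox1 had 143 ± 4.14 CPM in control and 131 ± 3.44 CPM in knockdown libraries and changed by -0.12 on the log2 scale (SE 0.04, adjusted p = 0.0176 by edgeR). Pcyox1l had 17.3 ± 2.68 and 12.1 ± 2.26 CPM and changed by -0.53 (SE 0.12, adjusted p = 0.00137 by edgeR). Only 1 partner was called lower without control replicate 1 or 4 or knockdown replicate 1 or 2, as Pcyox1 lost its call there. With the length and GC correction 3 partners were called higher, and under total-count scaling 4 were called lower. Gdi2 and Arhgdia, GDP dissociation inhibitors that hold prenylated GTPases in the cytosol, were not called. Gdi2 was at 388 and 381 CPM and Arhgdia at 907 and 924 CPM in control and knockdown.

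Genes for proteins listed as ending in a CAAX box, the substrates of these enzymes, were called in both directions. Of 51 listed, 48 were tested, with 13 higher, 7 lower and a median log2 fold change of 0.05. Calls were thus 41.7% of the tested list against 20.2% of all genes. With a mean of at least 5 CPM required, 20 of 46 were called against 26.7% of all genes, so the list's share stayed the higher one. The part of abundance in this share was not tested. Total-count scaling and FPKM each gave 7 rises. The list came from general knowledge and its members were not checked against protein sequences. Like the other lists it was chosen with earlier results of these data known, so its higher share is no independent support.

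Within it, relatives moved apart. Among Rap proteins Rap1a, a known smgGDS partner, rose by 0.33 (SE 0.08), while Rap2a (-0.36, SE 0.09) and Rap2b (-0.35, SE 0.09) fell. Of their GTPase relatives Rhoc (0.17, SE 0.03), Rhoq (0.21, SE 0.06) and Cdc42 (0.12, SE 0.04) rose and Rhod (-0.47, SE 0.08) and Rnd3 (-0.13, SE 0.05) fell. The G protein gamma subunits Gng12, Gng5 and Gng10 rose, led by Gng12 with 41.1 ± 0.93 CPM in control and 59.0 ± 4.68 CPM in knockdown libraries (SD, n = 4 each). Its change of 0.52 on the log2 scale had an SE of 0.06 and an edgeR adjusted p of 4.99e-09. The prenylated phosphatases Ptp4a3 (-0.47, SE 0.09) and Ptp4a1 (-0.09, SE 0.03) and the kinetochore protein Cenpf (-0.28, SE 0.06) fell. The remaining rises were Rala (0.25), the cochaperone Dnaja1 (0.19), the SNARE protein Ykt6 (0.11), the histone chaperone Nap1l1 (0.13) and the phospholipase Pla2g4c (0.39). Hras and Nras were not called, at -0.11 and 0.08. Without control replicate 1 or 2 or knockdown replicate 1 or 4, Cdc42 and Rnd3 were not called, and Rala was not called without control replicate 2 or 3 or knockdown replicate 1 or 4. Gng10 lost its call without control replicate 1 or 2 or knockdown replicate 1, and Pla2g4c without control replicate 1 or 3 or knockdown replicate 1 or 4. Ptp4a1 lost it without control replicate 1 or 4 or knockdown replicate 3 or 4, and Rap2b without control replicate 2. Counts of Rhoq, Gng5 and Cenpf are not all whole.

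**Figure D5:**
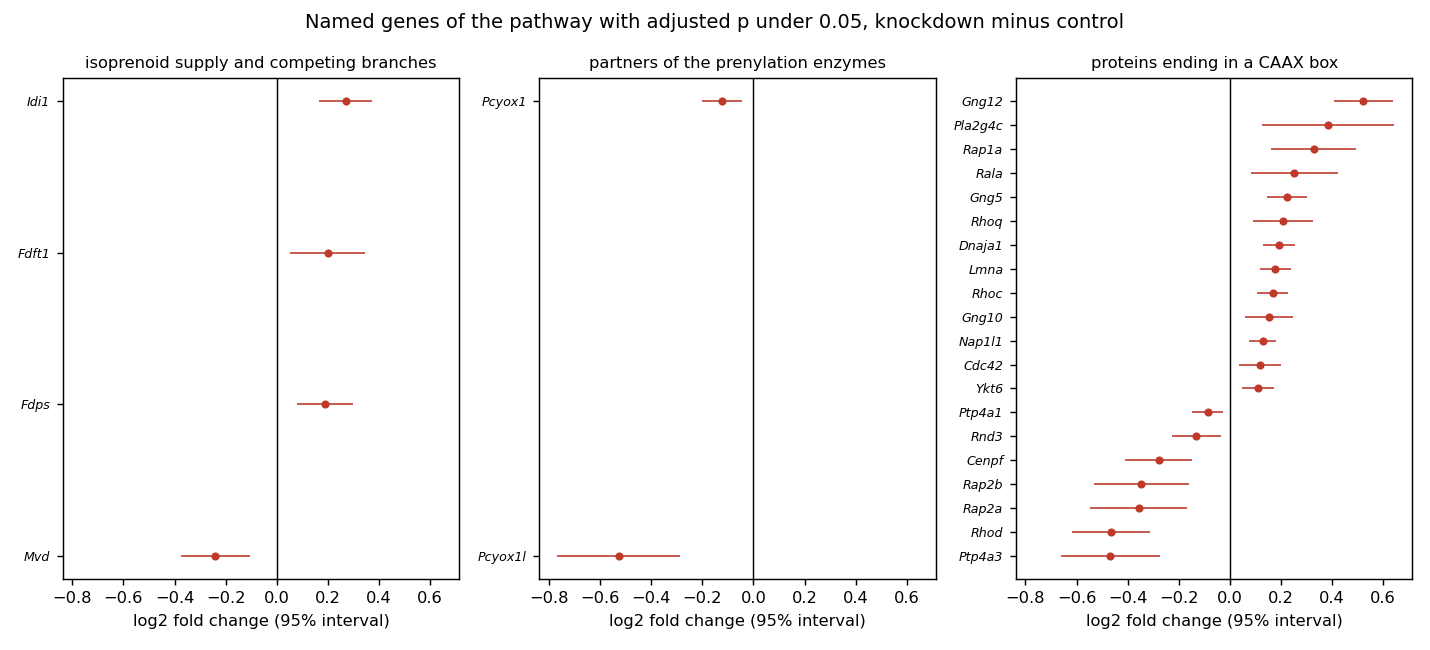
Log2 fold change, knockdown minus control, with 95% interval for genes that passed the adjusted threshold of 0.05 and are named here: 4 of isoprenoid supply and competing branches, 2 partners of the enzymes and 20 listed CAAX proteins. They lie on both sides of 0 in the first and last list and below 0 among the partners.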

How the data were processed

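Per gene, the authors deposited expected counts, of which 6.52% were not whole (tolerance 1e-09), beside FPKM for each of the 8 libraries, per the file headers. The submitters' processing notes name build GRCm38.p6 and, without roles, RSEM, StringTie 1.3.1, HISAT2 2.4, Bowtie2 2.2.8, fastp 0.18.0, edgeR and DESeq2. Annotation release and strand setting: not given in the sources used here.

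Rounded expected counts went into edgeR 4.0.16 (R 4.3.3), with TMM factors, the default expression filter and a robust quasi-likelihood F-test on group without covariates. CPM values use TMM-scaled library sizes. An SE is the fold change over the root of its F statistic, and intervals rest on the spread between libraries. Depth sets the precision, and 3 counts correspond to 0.181 to 0.257 CPM per library, for counting error only. Replicates differed by more than sampling noise (chi-square per degree of freedom 1.94 to 3.98), so none was a duplicate. The procedure was tested on simulated data.

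Subunit ratios were log2 ratios of expected counts plus 0.5. The text names the 10 members, Rap1gds1, the called genes of 3 pathway lists, and the 5 genes most like the member with the smallest adjusted p among genes with at least 10 CPM and an established symbol; other genes were named after their values were seen, and some genes meeting the rule are not reported here. Members and lists were chosen with earlier results of these data known. Of the members, Fnta and Pggt1b had no entry in the RefSeq promoter table, and 8 matched by symbol; of the Zmpste24 window, 39 bases inside the gene are not shown.

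Alternatives were RLE factors, total-count scaling, DESeq2 1.42.0, limma 3.58.1 voom, limma on log2(FPKM + 0.5), other filters, a term for replicate number, leaving out each library, a threshold of 0.01 and genes with whole counts only. Length and GC correction (by loess, for 11178 tested genes, using the longest transcript in GENCODE M21) was added after seeing the data.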

Additional observations from a re-analysis of the deposited data

How the results depend on the processing

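The 2 rises among the members went to 0 with total-count scaling, with FPKM and at a threshold of 0.01, and 1 with DESeq2, with no low-count filter and after the length and GC correction; leaving out 1 library gave 0 to 2. The count of members lower was 1 under total-count scaling and 0 in every fit with a library left out. Over all genes, total-count scaling gave 766 higher and 1951 lower against 1285 and 1059, FPKM gave 592 higher and 1481 lower, and a threshold of 0.01 gave 825 and 580; leaving out 1 library gave 1033 to 1227 higher and 802 to 997 lower. Total-count scaling put the median over all genes at -0.06 and FPKM at -0.05. For isoprenoid supply the 3 rises went to 1 with total-count scaling, with FPKM, at 0.01 and with whole counts only, where fewer of its genes were tested, and 2 to 3 with a library left out; its 2 falls became 4 under total-count scaling and stayed at 2 with a library left out. For the partners, rises went from 0 to 3 after the length and GC correction and falls from 2 to 4 under total-count scaling and to 1 at 0.01, with 1 to 2 falls and 0 rises when a library was left out. For the CAAX list, 13 rises went to 7 when scaled by library total or measured as FPKM and to 9 to 13 with a library left out, and 7 falls became 5 to 8. Beyond the stated constructions, the cause of these shifts was not tested.

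The members whose estimates changed sign were Rabggta, Fntb and Rce1, none of them called in any setting. Rabggta did so under total-count scaling (-0.050), on FPKM (-0.041) and when a library was left out (-0.048 without control replicate 1, -0.017 with control replicate 2 removed and -0.0095 with knockdown replicate 4 removed, range -0.048 to 0.049). Fntb turned to -0.0029 with knockdown replicate 4 left out (range -0.0029 to 0.17) and Rce1 to 0.0050 with control replicate 3 left out (range -0.083 to 0.0050). Leaving out 1 library moved the log2 ratio differences between -0.14 and 0.021 for Fntb to Fnta, between -0.25 and -0.16 for Pggt1b to Fnta, between 0.056 and 0.16 for Rabggtb to Rabggta and between -0.52 and -0.27 for Chml to Chm. Of 27 called genes in the other lists, 15 passed in every alternative that tested them and 0 changed sign. The labels number replicates 1 to 4 in both groups without saying that a number marks a shared culture, so same-numbered libraries were not treated as pairs. Their deviations correlated at -0.04 to 0.08 across genes. For replicates 1, 2 and 4 this was above the highest correlation of that control with a knockdown library of another number. For replicate 3 it was below (-0.04 against 0.04). These small values do not settle whether the libraries were paired. With a replicate block 3 members rose, Rabggtb being added (adjusted p = 0.0478), and 1425 genes were higher and 1235 lower. Low counts limit Chm and Fntb most.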
